A study of Mus musculus with 4 samples.

Results

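Alveolar macrophages of MMTV-HER2 mice were compared with those of wildtype FVB mice at 16 weeks of age, a stage at which the labels place early lesions in the MMTV-HER2 animals. An alveolar macrophage was a barcode that held 1000 or more UMIs (unique molecular identifiers, 1 per captured transcript) from 500 or more genes, of which no more than 10% were mitochondrial. In addition, Chil3, Ear1, Ear2, Fabp1, Lpl and Plet1 together had to hold at least 0.4% of its UMIs and more than C1qa, C1qb and C1qc together. This gave 4833 of 5449 cells (88.7%) in wildtype early and 4413 of 5126 cells (86.1%) in HER2 early. These 9246 cells are part of 19193 alveolar macrophages and 22258 cells in the 4 libraries of the series, which also holds a wildtype and a HER2 library at 32 weeks.

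In MMTV-HER2 mice the long terminal repeat of mouse mammary tumour virus drives the HER2 oncogene, a promoter known for its activity in mammary epithelium. All animals were female, and each group is 1 library of macrophages sorted from collagenase-digested lung. The number of mice per library and the antibodies of the sort gate are not given in the sources used here. The strain entry names both genotypes for every sample, so the genotype was taken from the sample titles. With 1 library per group there was no replicate check and no test was possible. Each ratio has a 95% interval that covers counting error only.

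Alveolar macrophages are the resident phagocytes of the airspaces and are maintained by GM-CSF and the nuclear receptor PPAR-gamma. They take up and recycle surfactant lipid, clear inhaled particles through scavenger receptors and renew themselves largely by local division. Their cholesterol balance is set by sterol-sensing transcription factors for synthesis and uptake, and by lipid-sensing nuclear receptors for export through Apoe and ABC transporters.

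Of the 12 alveolar macrophage markers, 6 are genes of the selection rule, and their levels follow from it. The other 6 were detected in both libraries, Mrc1 at 995 and 1063, Krt79 at 565 and 531, Itgax at 258 and 280, Car4 at 165 and 147, Siglecf at 106 and 114 and Marco at 55.0 and 108. These are levels in CPM in wildtype and HER2, where CPM counts the UMIs of a gene per 1000000 UMIs of the alveolar macrophages of a library. With the rule genes the summed level was 18322 CPM in wildtype and 19800 CPM in HER2. The 10 interstitial macrophage markers, which include the C1q genes that the rule limits, summed to 72.7 and 91.1 CPM. The cells of wildtype early gave 22860512 UMIs with a median of 4309 per cell, and those of HER2 early gave 18226829 with a median of 3728. At the threshold, 38 wildtype and 33 HER2 cells lay just inside (0.4 to 0.5% of UMIs), and 22 and 11 cells lay just outside (0.3 to 0.4%). A further 7 and 15 cells failed only on the C1q genes. The alveolar macrophages of the early libraries shared 1 barcode.

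The libraries also differed in RNA from other cells. The 10 T cell markers summed to 49.1 CPM in wildtype alveolar macrophages and 4.66 CPM in HER2, and to 652 and 109 CPM in free RNA (barcodes with 10 to 100 UMIs). No T cell marker was at 0 in either library. Counting only T cell receptor and CD3 genes, 157 wildtype and 34 HER2 alveolar macrophages held at least 1 UMI, and 34 and 2 held at least 3. The immunoglobulin gene Igkc stood at 33.1 CPM in wildtype and 4.11 in HER2 cells. The airway secretory gene Scgb1a1 stood at 1.57 and 23.9 CPM, with 9.27 and 862 CPM in free RNA. B and plasma cell markers summed to 47.0 and 12.5 CPM, a sum carried by the immunoglobulin genes Igkc and Ighm (274 and 57 UMIs). Jchain (25 and 3 UMIs) had the same direction, and Iglc2 had 9 UMIs in each library. The B cell genes Cd79a (3 and 18 UMIs), Cd79b (4 and 13), Ms4a1 (2 and 12), Ebf1 (2 and 34) and Pax5 (0 and 6) ran the other way, on few UMIs. The sum thus does not show less B cell RNA in HER2. Neutrophil markers summed to 69.5 and 68.3 CPM, endothelial to 67.2 and 68.4, fibroblast and mural to 6.04 and 2.74, and erythroid and platelet to 7.31 and 0.823. NK cell markers (1.53 and 4.22 CPM) and dendritic cell markers (1.97 and 2.74) were near 0. The alveolar epithelial list (263 and 211 CPM) was nearly all Epcam and the airway list (275.5 and 262) nearly all Tppp3. The monocyte list (7175 and 7329) was nearly all Chil3, and the list of eosinophil, basophil and mast cell markers (107 and 115) nearly all Siglecf, both known alveolar macrophage genes. Igkc and Scgb1a1 had the largest ratios of all measured genes in their directions, and are markers of other cell types.

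Of 7064 genes measured (a mean of at least 10 CPM over both early libraries), 42 were at least 25% higher in HER2 (a log2 ratio of 0.32 or more), which is 0.595% of those measured. Another 96, or 1.36%, were lower by the same ratio. A gene past this ratio is called higher or lower below. All 138 called genes had counting intervals wholly on one side of no difference. At these depths the minimum level and the ratio make that outcome nearly certain, so it is no separate support. Counts of called list members below are to be read beside the shares of 0.595% higher and 1.36% lower. Only 4 genes were 1.5-fold higher and 15 were 1.5-fold lower. At 2-fold these counts were 1 (Scgb1a1) and 3 (Igkc, Fn1 and S100a6), names given here because of their values. The median log2 ratio over all measured genes was -0.03, with a standard deviation of 0.14 over genes, and 90% of genes lay between -0.22 and 0.16. Of the called genes, 137 were also in the authors' deposited table of averages over alveolar macrophages, where 136 had the same direction and 89 were past the same ratio. Those averages come from the same libraries with the authors' own choice of cells, so they are not an independent check.

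**Figure D1:**
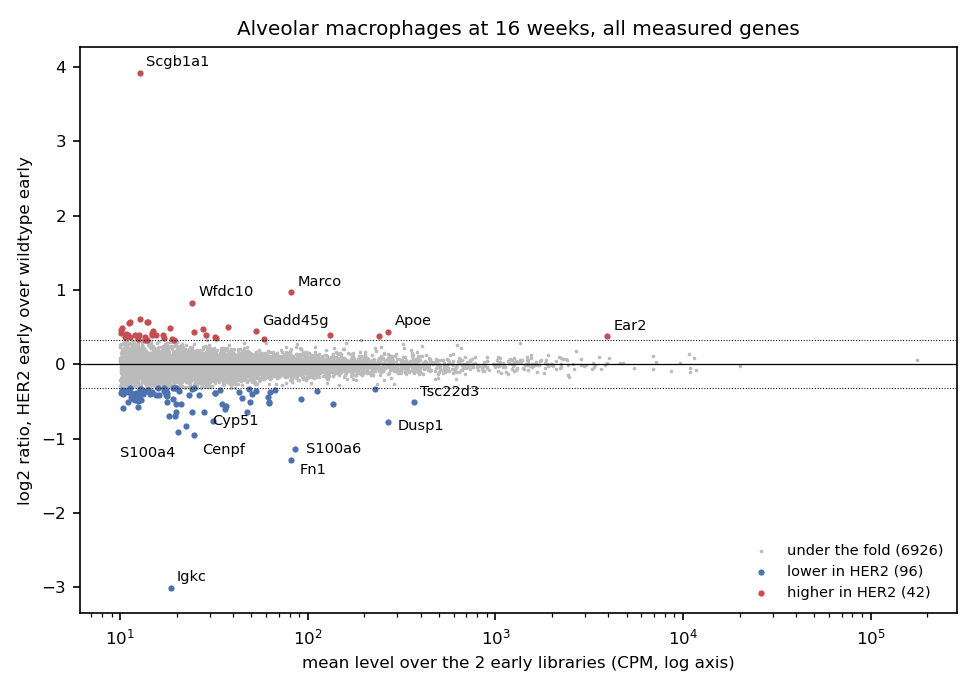
Log2 ratio of HER2 early over wildtype early against the mean level in CPM (log axis) for the 7064 measured genes in alveolar macrophages. Each point is 1 gene. The 42 genes called higher are red, the 96 called lower are blue, and the dotted lines mark the log2 ratio of 0.32. Marco stands at 0.97 and Fn1 at -1.29, while most genes lie close to 0.

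Among uptake receptors, Marco, a class A scavenger receptor that binds bacteria and inhaled particles, was higher in HER2. It stood at 55.0 CPM in wildtype (1257 UMIs) and at 108 CPM in HER2 (1965 UMIs), a ratio of 1.96-fold (log2 0.97, interval 0.87 to 1.07). Marco (chr1:120474538-120505024, minus strand, GRCm38) was the 1 called member of 14 measured scavenger and uptake receptors. The lipid scavenger receptor Cd36 stood at log2 0.22 (0.16 to 0.28), the mannose receptor Mrc1 at 0.10 and the class A receptor Msr1 at -0.07. The list had a median log2 of 0.02, with 9 members above 0 and 5 below, beside -0.02 over all measured genes (list medians carry a pseudocount of 1 CPM).

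Marco UMIs were found in a minority of cells in both libraries. After every cell was thinned to 2000 UMIs, which left out 357 wildtype and 490 HER2 cells, 5.59% (95% interval 4.93 to 6.30) of wildtype and 10.8% (9.80 to 11.8) of HER2 cells had a Marco UMI. Without thinning the shares were 9.37 and 15.2%. The richest 1% of cells held 42.2% of the Marco UMIs in wildtype and 29.4% in HER2. At a depth of 1000 UMIs, 3.37% of wildtype and 6.34% of HER2 alveolar macrophages had a Marco UMI, while T cells, which should lack the gene, had one in 0.56% of 179 cells and in 0 of 68. The ratio was above 0 in every class of cells by depth, at log2 1.29 below 2500 UMIs, 0.92 from 2500 to 5000 and 1.12 at 5000 or more. In the 291 wildtype and 434 HER2 cells led by the C1q genes, Marco ran the other way, at 31.8 and 8.03 CPM, which rests on 69 and 17 UMIs.

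Of 25 measured lipid handling genes 2 were called higher in HER2, none lower and 23 in neither direction. Over all measured genes 0.595% were called higher and 1.36% lower. The list median was 0.08, with 21 members above 0, among them the rule genes Lpl and Fabp1. The called members were Apoe and Apoc1, lipoproteins that take up exported cholesterol. Apoe stood at 227 CPM in wildtype and 308 in HER2 (log2 0.44, 0.38 to 0.49). Apoc1, its neighbour on chromosome 7, stood at 114 and 150 CPM (0.40, 0.32 to 0.47). Apoe is also abundant in free RNA, at 2423 and 2877 CPM, and in the C1q-led cells, at 14027 and 11237 CPM. At 1000 UMIs the share with an Apoe UMI was 12.4% of wildtype alveolar macrophages and 17.3% of wildtype T cells. By this measure the wildtype share cannot be told from background. In HER2 the shares were 14.7% and 7.35%, the latter of only 68 T cells, although free RNA held more Apoe there. How much Apoe is background in either library was not tested. Subtracting free RNA moved the Apoe ratio to log2 1.28, so its size is uncertain, and that of Apoc1 to 0.49. The Apoe ratio was 0.50 without cells holding a T cell receptor or CD3 UMI, and -0.06 (-0.29 to 0.16) in cells below 2500 UMIs.

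Several further lipid genes stood above 0 without reaching the fold. Lpl, the lipoprotein lipase, went from 1223 to 1486 CPM (0.28), but it is a gene of the selection rule and this value is a description only. Lipa, the lysosomal acid lipase, stood at 370 and 437 CPM (0.24, 0.20 to 0.28). Mylip, a ubiquitin ligase of sterol balance, stood at 0.29, the cholesterol exporter Abca1 at 0.23 and the fatty acid carrier Fabp4 at 0.21. Exceptions were the lipid-sensing receptor Nr1h3 at -0.18 and the lipid droplet protein Cidec at -0.10. Among 19 measured lipid-associated macrophage genes, 18 stood above 0 with a median of 0.07. This list shares Apoe, Lpl, Lipa and other genes with lipid handling, so its counts are not separate. Kcnj15, a potassium channel, was called higher in it (51.8 and 65.5 CPM, 0.34, 0.22 to 0.45), and Gpnmb, a lysosomal glycoprotein, stood at 144 and 175 CPM (0.28, 0.21 to 0.35). The elastase Mmp12 was called lower, at 51.4 and 37.6 CPM (-0.45).

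The cells' identity genes were close to equal. None of 24 measured members of the alveolar macrophage identity and GM-CSF list was called in either direction, with 12 above and 12 below 0 and a median of 0.00. The regulators Pparg and Bhlhe41 stood at 0.12 and 0.18, and the carbonic anhydrase Car4 was the lowest at -0.17. Of 7 measured ribonuclease and chitinase-like genes, Ear2 was called higher (3423 and 4444 CPM, 0.38). Chil3, at 7126 and 7280 CPM (0.03), and Ear1, at 2249 and 2175 CPM (-0.05), were not, and the list median was -0.05. Ear2 chose the cells and shares its 3′ end with Ear1 and Ear10, so this value is both a description and uncertain. Of the other rule genes, Fabp1 stood at 0.02 and Plet1 at -0.01. C1qa, C1qb and C1qc stood at 0.39, 0.44 and 0.57 from 24.8, 12.6 and 9.05 CPM in wildtype.

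The remaining named genes that were higher have varied roles. Wfdc10, a secreted WAP-domain protein, went from 17.5 to 31.0 CPM (0.83, 0.64 to 1.02), and its share of thinned cells from 2.79 to 5.12%. Gadd45g, a growth arrest and stress gene, stood at 44.5 and 60.7 CPM (0.45, 0.32 to 0.57). It was the called 1 of 18 measured survival and growth arrest genes, whose median was -0.02. Mlph, an adaptor of organelle transport, stood at 23.2 and 32.1 CPM (0.47, 0.30 to 0.64), and Cpne8, a calcium-dependent membrane-binding protein, at 27.7 and 35.8 (0.37). Adrm1 (a proteasome ubiquitin receptor, 0.44), Ubb (ubiquitin, 0.25) and Erh (0.35) share near-identical 3′ ends with other transcripts and are uncertain. Ubb, Lpl, Gpnmb and Lipa were named by their rank on the interval bound, although none of them was called.

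**Figure D2:**
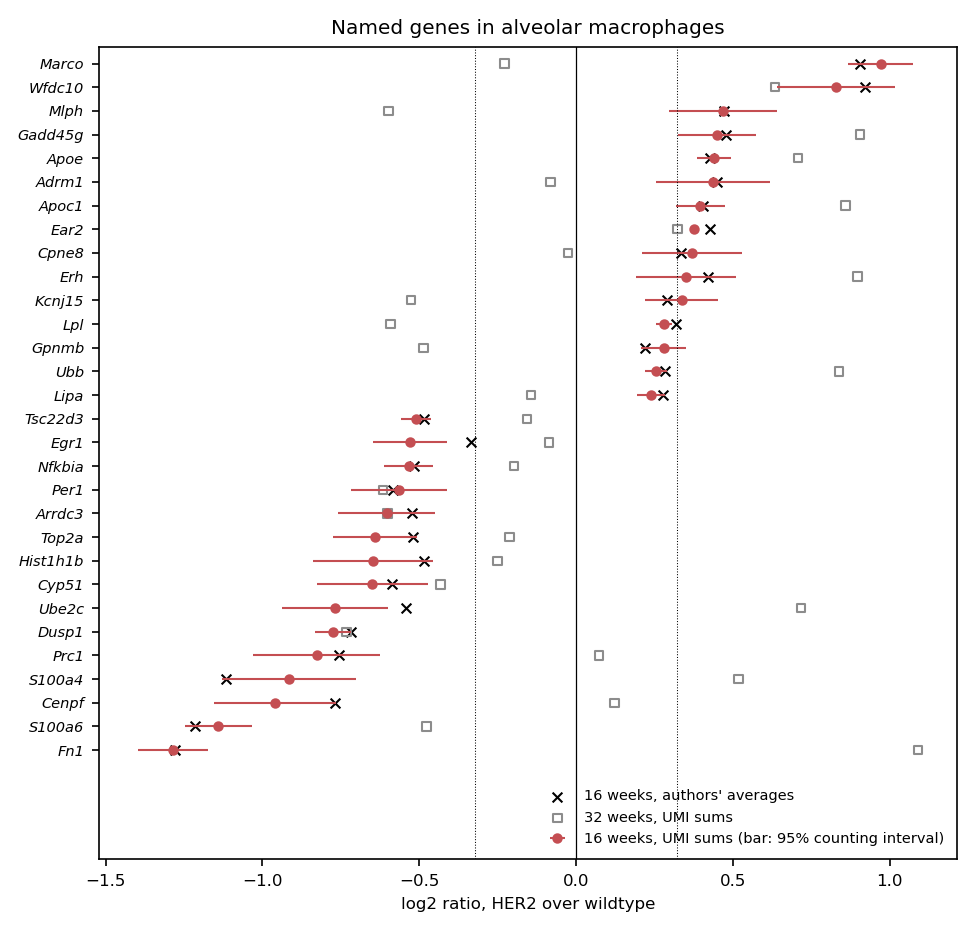
Log2 ratio of HER2 over wildtype for the 15 highest and 15 lowest ranked genes in alveolar macrophages. Red points with bars are UMI sums at 16 weeks with 95% counting intervals, crosses are the authors' averages at 16 weeks, and open squares are UMI sums at 32 weeks. At 16 weeks the authors' averages, which come from the same libraries, have the same sign for every gene drawn. The late squares of some genes, such as Fn1 (1.09) and Mlph (-0.60), lie on the other side of 0.

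The matrix gene Fn1 and the calcium-binding gene S100a6 had the lowest ratios among the named genes. Fn1, which encodes the matrix protein fibronectin, stood at 116 CPM in wildtype (2641 UMIs) and 47.4 in HER2 (864 UMIs). It was 2.44-fold lower (log2 -1.29, -1.40 to -1.17; chr1:71585520-71653200, minus strand, GRCm38). S100a6 stood at 118 and 53.4 CPM (-1.14, -1.25 to -1.04), and S100a4, its neighbour on chromosome 3, at 26.7 and 14.2 CPM (-0.91, -1.13 to -0.70). The 3′ end of S100a4 is shared with another transcript, and its value is uncertain.

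Fewer HER2 cells held these transcripts. After thinning, 15.8% (14.7 to 16.9) of wildtype and 6.27% (5.53 to 7.08) of HER2 cells had an Fn1 UMI, against 24.0 and 8.88% without thinning. At 1000 UMIs, T cells had one in 2.79% of wildtype and 0 of HER2 cells. The richest 1% of cells held 16.5% of Fn1 UMIs in wildtype and 40.6% in HER2. S100a6 was found in 9.56 and 4.16% of thinned cells. Of T cells at 1000 UMIs, 6.15% in wildtype and 19.1% in HER2 held S100a6, against 6.497 and 2.72% of alveolar macrophages at that depth. The T cell share was thus the higher one in HER2 only, and T cells express the gene themselves. Fn1 was lower within every class of depth (log2 -0.76 to -1.36) and every class of alveolar gene share (-0.52 to -1.43). In the C1q-led cells of the same libraries Fn1 stood higher in HER2 (93.7 and 140 CPM, 0.58, 0.32 to 0.85), and S100a6 stood at 718 and 717 CPM. Free RNA held Fn1 at 154 and 80.8 CPM, S100a6 at 232 and 191 and S100a4 at 142 and 125. Each of these values was above the level in the alveolar macrophages of its library. How much of these transcripts is background was not tested.

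The other members of these lists differed less. Of 16 measured matrix and remodelling genes, 4 were called lower, beside 1.36% of all measured genes, and none higher, with a median of -0.10. Beside Fn1 and Mmp12 they were the TGF-beta-induced adhesion protein Tgfbi (107 and 77.2 CPM, -0.47, -0.56 to -0.37) and the secreted protein Ccdc80 (59.2 and 46.3 CPM, -0.36). Spp1, which encodes osteopontin, stood at 0.05 and the cathepsin gene Ctsb at 0.07. Tgfbi was the called 1 of 18 measured TGF-beta genes (median 0.01), where the ligand Tgfb1 stood at 0.04 and the receptors Tgfbr1 and Tgfbr2 at -0.04 and 0.12. Of 18 measured S100 and monocyte-derived genes, S100a6 and S100a4 were the only ones called, and the list median was -0.05. S100a10, S100a11 and S100a8 stood at -0.11, 0.03 and 0.24. Of the monocyte markers, Ly6c2, Plac8, Ccr2 and Ms4a4c were at or below 1.98 CPM in both libraries. F13a1 stood at 2.80 and 1.76 CPM, Ace at 10.1 and 11.6, Nr4a1 at 10.7 and 11.1 and Cd300e at 23.1 and 21.3.

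Of 12 measured genes known to respond to glucocorticoid, 6 were called lower in HER2, beside 1.36% of all measured genes, and none higher. In this list 11 stood below 0, with a median of -0.24 beside -0.02 over all measured genes. Dusp1, a phosphatase that switches off MAP kinases, stood at 336 CPM in wildtype (7674 UMIs) and 196 in HER2 (3577 UMIs), 1.71-fold lower (log2 -0.77, -0.83 to -0.72). Tsc22d3, which encodes the anti-inflammatory protein GILZ, stood at 431 and 303 CPM (-0.51, -0.56 to -0.46). Nfkbia, the inhibitor of NF-kB, stood at 161 and 111 CPM (-0.53, -0.61 to -0.46). The clock repressor Per1 (43.9 and 29.7 CPM, -0.56), the transcription factor Klf9 (48.4 and 37.4, -0.37) and Cebpd (54.2 and 43.2, -0.33) complete the called members. Members of the list that were not called included Fkbp5 at -0.16, Sgk1 at -0.10, Mt1 at -0.14 and Glul at 0.12.

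These differences were spread over many cells. Dusp1 was found in 37.9% (36.5 to 39.4) of thinned wildtype and 25.6% (24.3 to 27.0) of HER2 cells, Tsc22d3 in 53.5 and 42.9%, and Nfkbia in 25.2 and 16.4%. The richest 1% of cells held 9.47 and 12.6% of Dusp1 UMIs. Summed over the list, the log2 ratio lay between -0.16 and -0.26 in the classes by depth and between -0.16 and -0.34 in the classes by alveolar gene share, with every interval below 0. In the C1q-led cells Dusp1 (-0.77, -0.92 to -0.63) and Nfkbia (-0.71) had ratios of similar size. There Tsc22d3 (-0.14, -0.26 to -0.02), Per1 (-0.17, -0.55 to 0.21) and Klf9 (0.00, -0.32 to 0.32) stood nearer 0. The free RNA of the libraries moved with several members as well, Dusp1 at 426 and 242 CPM and Tsc22d3 at 451 and 305 CPM. With free RNA subtracted the list median was -0.24.

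Most immediate early genes stood near 0. Of 22 measured, 3 were called lower (Dusp1, Egr1 and Ier3) and none higher, with a median of -0.01. Egr1, a zinc finger factor induced within minutes of stimulation, stood at 73.0 and 50.6 CPM (-0.53, -0.65 to -0.41), and its ratio in the authors' deposited table was -0.33. Fos stood at -0.27, while Jun (-0.03), Fosb (-0.02), Zfp36 (-0.01) and Ier2 (0.06) were near 0 and Junb was at 0.15. Of 15 NF-kB targets and cytokines, Nfkbia was called lower and Il1a, with 9.274 and 11.96 CPM, was called higher (median -0.04). Rgs1, which damps chemokine receptor signalling, was the called 1 of 11 chemokine and chemoattractant receptor genes (71.0 and 52.0 CPM, -0.45, median -0.05). Cells with at least 5 immediate early UMIs after thinning made up 12.5% (11.5 to 13.5) of wildtype and 9.38% (8.49 to 10.3) of HER2 cells, against 38.4 and 26.6% without thinning. Arrdc3, an arrestin-like adaptor outside these lists, stood at 43.4 and 28.5 CPM (-0.60, -0.76 to -0.45).

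The promoter of Dusp1 is shown because it holds a full cyclic AMP response element, TGACGTCA, in capitals. Windows here are from RefSeq on GRCm38.p6, read from the 250 bases upstream of a gene's start and kept outside exons of GENCODE M21. Of 1246 promoters checked, 591 began the gene at exactly a GENCODE transcript start, so the start is RefSeq's and need not be the one used in these cells. Matches were sought on both strands. The Dusp1 window, 169 to 110 bases upstream, lies at chr17:26508582-26508641 on the minus strand.
Dusp1: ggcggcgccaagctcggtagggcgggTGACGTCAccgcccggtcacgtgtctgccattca
This element was in 508 of 32851 promoters (1.55%) and in 1 of 19 promoters of the measured glucocorticoid-responsive genes. A full glucocorticoid response element, AGAACA and TGTTC with 3 bases between them, was in 10 of all promoters (0.0304%) and, in the list, in 1 of 6 promoters of Sgk1 only. The absence of a match says only that these letters are not in this window.

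Of 14 measured cholesterol synthesis genes, 4 were called lower in HER2, beside 1.36% of all measured genes, and none higher. In this list 13 stood below 0, with a median of -0.25 beside -0.02 over all measured genes. Cyp51, which demethylates lanosterol, stood at 34.0 CPM in wildtype (777 UMIs) and 21.7 in HER2 (395 UMIs; log2 -0.65, -0.83 to -0.47). Msmo1, which acts on the next methyl sterols of the pathway, stood at 30.2 and 22.5 CPM (-0.42, -0.60 to -0.24). Fdps, which makes farnesyl diphosphate, stood at 23.1 and 17.9 CPM (-0.36, -0.57 to -0.16).

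Hmgcs1, Srebf2, Insig1 and Dhcr7 were not called, the first 2 of them near the list median of -0.25. Hmgcs1, which makes HMG-CoA, stood at 57.0 and 47.5 CPM (-0.26, -0.39 to -0.14). Srebf2, which encodes the transcription factor SREBP2 that drives the pathway, stood at -0.29 (-0.50 to -0.09), and its inhibitor Insig1 at -0.09. Dhcr7, the reductase that makes cholesterol, stood at 0.07, the 1 member above 0. The summed list was lower in each class by alveolar gene share (log2 -0.23 to -0.33) and at -0.17, -0.18 and -0.29 in the 3 classes by depth. Only the interval of the shallowest class, -0.35 to 0.02, included 0. Cyp51 was in 5.38% (4.74 to 6.09) of wildtype and 3.77% (3.20 to 4.42) of HER2 thinned cells.

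Promoters of 2 members are shown because every member with a promoter entry held a CCAAT box, CCAAT or its reverse complement ATTGG, in 1 of its promoters. The window of Hmgcs1 lies at chr13:119690102-119690322 on the plus strand, and that of Srebf2 at chr15:82147106-82147166 on the plus strand. Capitals mark CCAAT boxes and, in Hmgcs1, also a sterol response element of the letters TCACNCCAC.
Hmgcs1: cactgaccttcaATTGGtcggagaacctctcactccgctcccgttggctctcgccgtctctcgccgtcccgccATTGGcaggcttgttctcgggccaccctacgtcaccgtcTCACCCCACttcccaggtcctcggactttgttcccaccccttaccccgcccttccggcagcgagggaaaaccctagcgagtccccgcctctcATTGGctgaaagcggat
Srebf2: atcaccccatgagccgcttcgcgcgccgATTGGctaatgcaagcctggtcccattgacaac
A CCAAT box was in 10 of 13 promoters of the 10 members with an entry (76.9%), beside 33.8% of all 32851 promoters and 34.4% of those of measured genes. The sterol element was in 1 of these 13, that of Hmgcs1, and in 1.05% of all promoters. Fdps and Fdft1 had no entry.

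**Figure D3:**
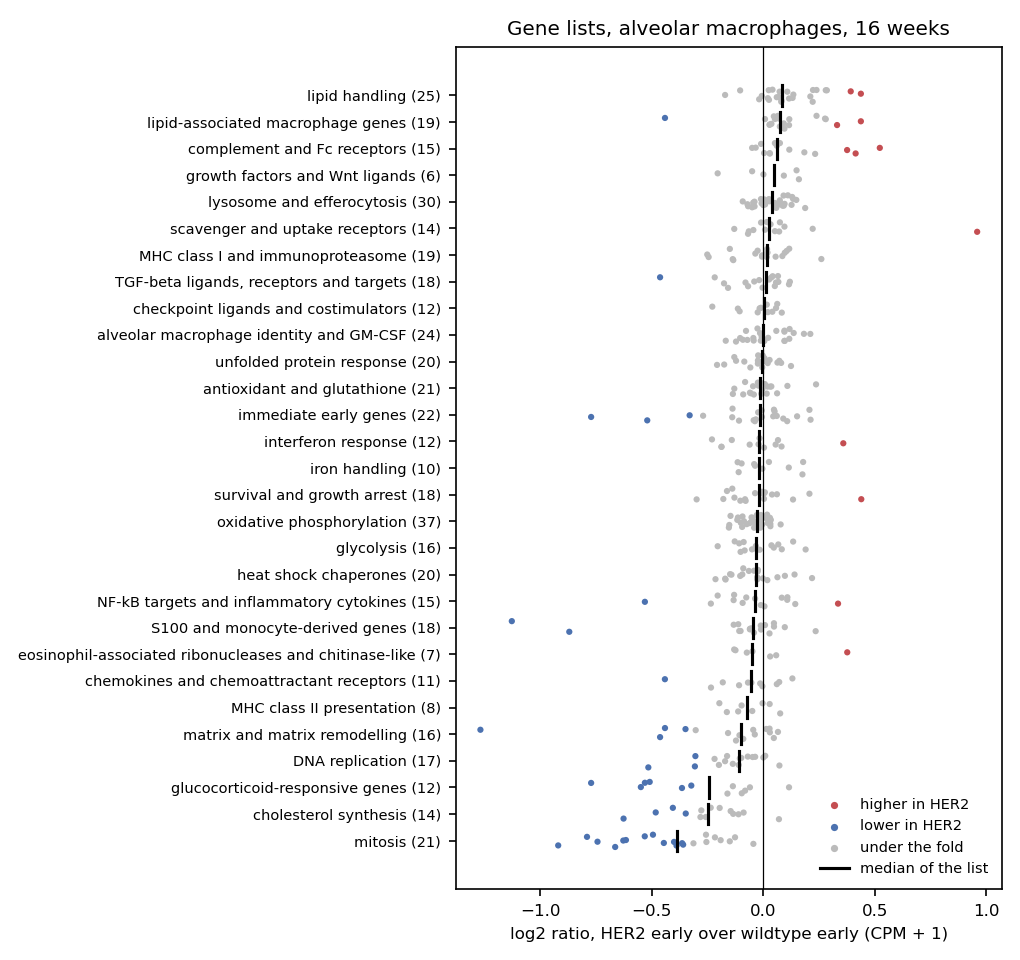
Log2 ratio (CPM plus 1) of HER2 early over wildtype early for the measured members of the 29 gene lists, 1 point per gene, with the number measured in brackets and the list median as a black bar. Red and blue points are called higher or lower. The medians of mitosis (-0.39), cholesterol synthesis (-0.25) and glucocorticoid-responsive genes (-0.24) stand farthest from 0.

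Mitosis genes had the lowest list median, -0.39. All 21 measured members stood below 0, and 13 were called lower, beside 1.36% of all measured genes. Cenpf, a kinetochore protein, stood at 32.6 CPM in wildtype and 16.8 in HER2 (-0.96, -1.16 to -0.76), although its 3′ end is shared with other transcripts. Prc1, which bundles the spindle midzone, stood at 28.5 and 16.1 CPM (-0.83), Ube2c, which marks cyclins for destruction, at 39.3 and 23.1 (-0.77), and the topoisomerase Top2a at 57.9 and 37.1 (-0.64). The kinase gene Cdk1 stood at 20.3 and 15.1 CPM (-0.42) and Mki67 at 57.8 and 40.8 (-0.50). Of 17 measured DNA replication genes 3 were called lower, Pclaf (-0.53), Tyms (-0.33) and Rrm2 (-0.33), with a median of -0.11. Pclaf shares its 3′ end with another transcript and is uncertain. The replication clamp Pcna stood at -0.04 and the helicase subunit Mcm3 at 0.07. The linker histone gene Hist1h1b stood at 29.4 and 18.8 CPM (-0.65).

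Few cells held these transcripts. Cells with at least 5 mitosis UMIs after thinning made up 4.09% (3.53 to 4.71) of wildtype and 3.31% (2.78 to 3.92) of HER2 alveolar macrophages, and their intervals overlap. Without thinning the shares were 10.2 and 6.84%. The richest 1% of cells held 70.8 and 80.4% of Cenpf UMIs. By depth, the summed list stood at log2 0.06 (-0.12 to 0.24) below 2500 UMIs, at -0.01 (-0.07 to 0.06) from 2500 to 5000 and at -0.31 (-0.35 to -0.27) at 5000 or more. By alveolar gene share it stood at -0.39 from 0.4 to 1%, at -0.28 from 1 to 2% and at 0.06 (-0.03 to 0.14) at 2% or more. The lower level was thus found in the deepest cells and in those with less alveolar macrophage RNA.

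T cell RNA moved with these genes. In the 179 wildtype and 68 HER2 cells that were no macrophages by these rules and held at least 3 T cell receptor or CD3 UMIs, the mitosis list summed to 4160 and 970 CPM, and Top2a to 418 and 29.5 CPM. Top2a was found in 11.7% of wildtype T cells at 1000 UMIs, against 2.44% of wildtype alveolar macrophages. Leaving out every alveolar macrophage with a T cell receptor or CD3 UMI, an alternative added after seeing the data, gave a list median of -0.30 with 10 members still called lower. Of the 17 DNA replication genes 1 was then called lower, and 1 was called lower with the alveolar gene threshold raised to 1%. Without the T cell receptor or CD3 UMI cells, Top2a stood at -0.42 and Hist1h1b at -0.33. Leaving out every cell with at least 2 UMIs of markers of other lineages, which kept 1787 wildtype and 1974 HER2 cells, gave a list median of 0.055, with Cenpf at 0.065 and Ube2c at 0.060. Those markers include Epcam and Tppp3, which alveolar macrophages themselves held at 254 and 202 CPM and at 274 and 235 CPM.

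Promoters of 2 mitosis genes are shown because CCAAT boxes and cell cycle homology regions (TTTGAA or TTCGAA) were both frequent in the list. Capitals mark both. Top2a lies at chr11:99024195-99024428 and Cdk1 at chr10:69352939-69353132, both on the minus strand.
Top2a: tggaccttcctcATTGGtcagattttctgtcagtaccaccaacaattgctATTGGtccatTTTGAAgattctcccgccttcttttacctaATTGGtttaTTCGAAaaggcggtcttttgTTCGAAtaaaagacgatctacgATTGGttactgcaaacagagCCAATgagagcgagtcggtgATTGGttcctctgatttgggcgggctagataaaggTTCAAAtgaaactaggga
Cdk1: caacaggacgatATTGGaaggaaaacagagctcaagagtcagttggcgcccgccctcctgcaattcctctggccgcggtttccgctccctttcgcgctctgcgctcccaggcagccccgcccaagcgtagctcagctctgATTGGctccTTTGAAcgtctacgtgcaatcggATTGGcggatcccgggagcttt
Of 20 promoters of the 19 members with an entry, 16 held a CCAAT box (80.0%, beside 33.8% of all promoters) and 8 held a cell cycle homology region (40%, beside 17.1%). The printed Top2a window holds 10 matches and that of Cdk1 holds 4. Tpx2 and Smc4 had no entry.

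The MHC class II list depended on which alveolar macrophages were compared. Over all of them, none of 8 measured members was called and the median was -0.07, with the invariant chain Cd74 at 511 and 446 CPM (-0.20, -0.24 to -0.16) and H2-Aa at 162 and 151 CPM (-0.10). Among cells with 0.4 to 1% alveolar genes (791 wildtype and 525 HER2) the ratio was positive, for Cd74 at 452 and 1006 CPM (1.15, 1.05 to 1.253) and for H2-Aa at 1.24. Among cells with 2% or more (1080 and 1333) Cd74 stood at 613 and 410 CPM (-0.58, -0.66 to -0.50) and H2-Aa at -0.51. From 1 to 2%, Cd74 stood at -0.41 and H2-Aa at -0.29. With the threshold raised to 1%, 2 members were called lower and the median was -0.17. Cells with at least 10 MHC class II UMIs after thinning made up 3.26% of wildtype and 2.85% of HER2 cells, against 10.99 and 6.62% without thinning. In C1q-led cells, Cd74 reached 19251 and 24547 CPM. Classes by alveolar gene share use the genes that chose the cells, and they hold different shares of the 2 libraries.

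**Figure D4:**
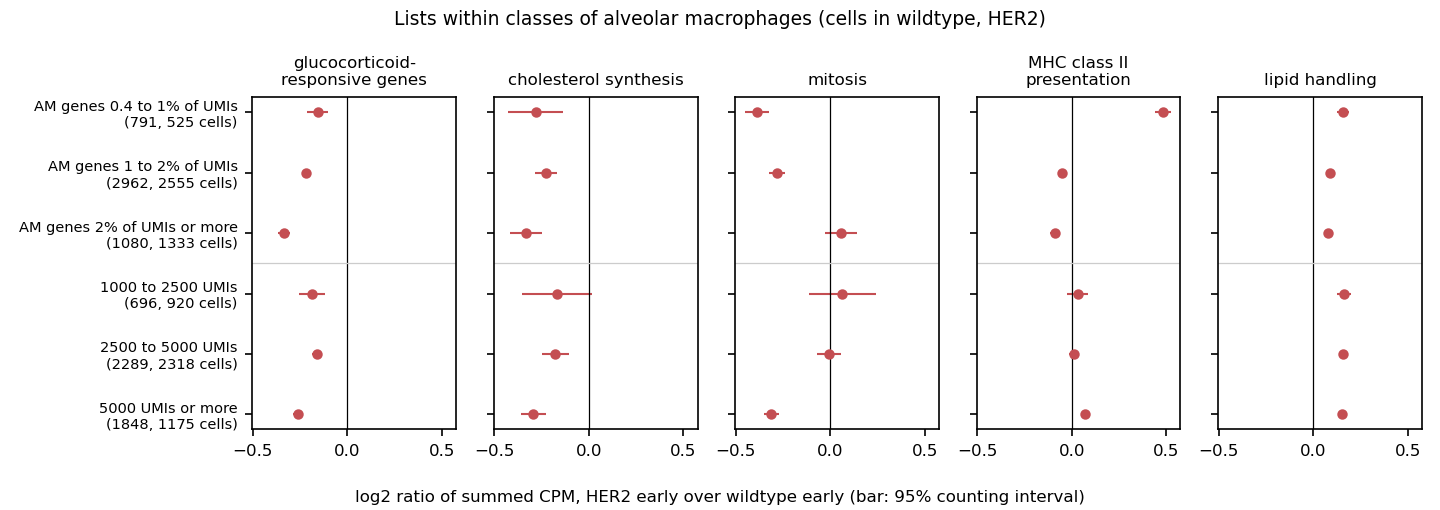
Log2 ratio of summed CPM, HER2 early over wildtype early, for 5 lists within 3 classes of alveolar gene share (upper rows) and 3 classes of depth (lower rows), with 95% counting intervals. Glucocorticoid-responsive genes lie below 0 and lipid handling above 0 in every class, while MHC class II presentation stands at 0.48 in the class with the lowest alveolar gene share. The lipid handling sum includes the rule genes Lpl and Fabp1, which chose the cells and help set the upper classes, so its values are descriptions only.

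Other programmes were close to equal. No measured member was called in either direction for lysosome and efferocytosis (30 genes, median 0.04), oxidative phosphorylation (37, -0.03), antioxidant and glutathione (21, -0.01), heat shock chaperones (20, -0.03), the unfolded protein response (20, 0.00) or MHC class I and immunoproteasome (19, 0.02). The same held for glycolysis (16, -0.03), checkpoint ligands and costimulators (12, 0.00), iron handling (10, -0.02) and growth factors and Wnt ligands (6, 0.05). In the lysosome list 21 of 30 members stood above 0, led by the macrophage glycoprotein gene Cd68 (333 and 380 CPM, 0.19, 0.14 to 0.24). The interferon response list (12, -0.02) had 1 called member, the antiviral membrane protein Ifitm3 (9.49 and 12.5 CPM, 0.39). The complement and Fc receptor list (15, 0.06) had 3, all of them C1q genes used in the rule.

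**Figure D5:**
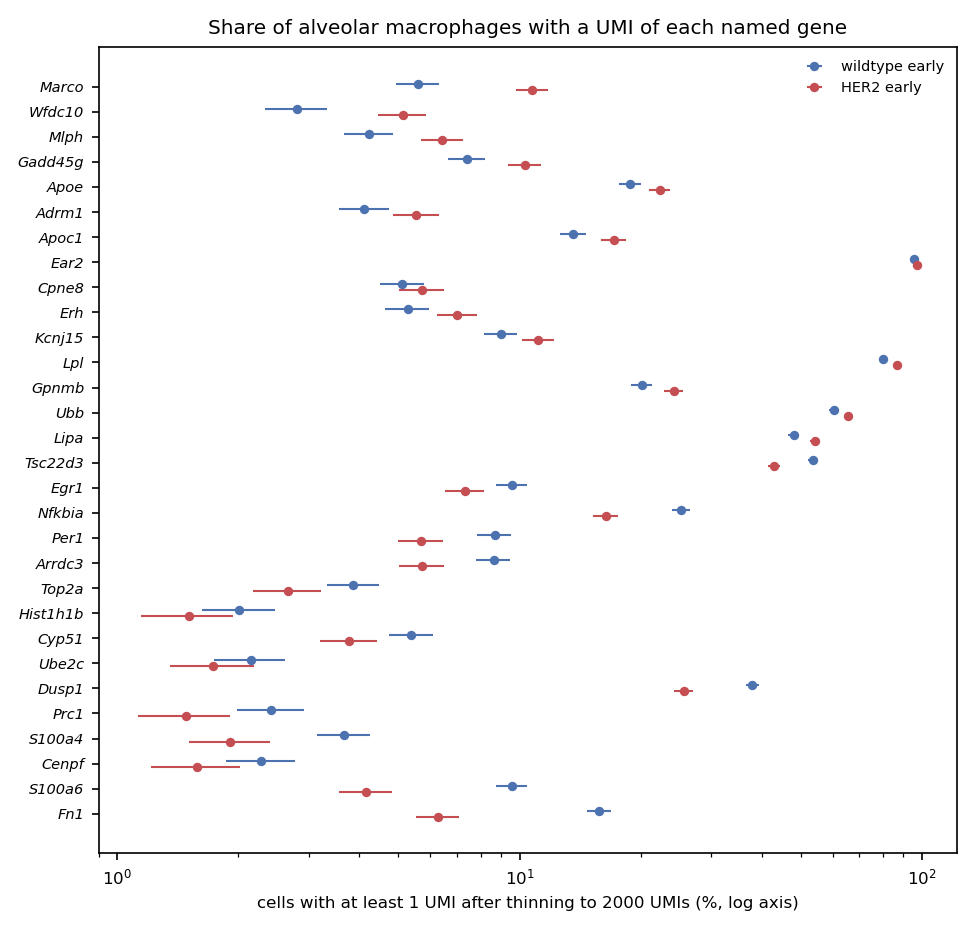
Share of alveolar macrophages with at least 1 UMI of each named gene after thinning every cell to 2000 UMIs (percent, log axis), in wildtype early (blue, 4476 cells) and HER2 early (red, 3923 cells), with exact 95% binomial intervals. The Fn1 share is 15.8% in wildtype and 6.27% in HER2, and the Marco share 5.59 and 10.8%.

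At 32 weeks, where the labels give palpable tumours in the late stage animals, other libraries gave the same genes different values. There 4.73% of 7212 measured genes were called higher and 28.5% lower, with a median of -0.20 over all, so late ratios are to be read against that median. Of the 42 genes higher at 16 weeks 12 were higher at 32 weeks, beside 4.73% of all measured. Of the 96 lower 29 were lower, a share close to the 28.5% of all measured. In the opposite direction 16 of the 138 were called, which is also to be read beside the late shares of 28.5% lower and 4.73% higher. Apoe (0.71), Apoc1 (0.86), Gadd45g (0.91) and Wfdc10 (0.63) were higher at both ages, and Dusp1 (-0.73), Per1 (-0.62), Cyp51 (-0.43), Arrdc3 (-0.60) and S100a6 (-0.48) were lower at both. Marco, at 180 and 153 CPM, stood at -0.23 late. The mitosis list had a late median of -0.04 with 1 member called in each direction. The difference between ages was not tested, since each group is 1 library.

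Erbb2, the mouse counterpart of the transgene, stood at 6.78 CPM in wildtype (155 UMIs) and 11.3 in HER2 (206 UMIs; log2 0.74, 0.43 to 1.05), a mean below the 10 CPM set for measured genes. These counts do not tell the transgene from the mouse gene and do not check the labels.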

How the data were processed

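Single-cell RNA-seq counts were analysed from 4 libraries of sorted lung macrophages. The deposited counts are UMIs per gene and barcode in unfiltered matrices, written by Cell Ranger 4 per the file headers, while the submitters' processing notes name Cell Ranger 5.0.1 and mm10. The authors' averages over alveolar macrophages are a signal per gene that sums to 10000 per column over 15906 genes, as deposited, and 4 rows with repeated names were left out. The rules for cells are given with the results. UMIs were summed over the alveolar macrophages of each library and scaled to CPM. Genes were measured at a mean of 10 CPM. Ratios carry exact conditional binomial 95% intervals, and shares of cells carry exact Clopper-Pearson 95% intervals. PCR duplicates are removed by UMIs, and intervals cover counting error only. Single ratios carry no pseudocount, and list medians carry 1 CPM. With 1 library per group no p-value was computed. The ratio code was tested on simulated counts.

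The cells, the 29 gene lists, the 14 marker lists and the tests were chosen with earlier results of these data known. The genes named one by one are the 15 highest and 15 lowest, ranked by the interval bound nearest 0, among genes of at least 20 CPM. Mitochondrial, ribosomal, haemoglobin, immunoglobulin, unnamed, sex-linked marker and other cell type marker genes were left out of the ranking, and list members, rule genes and Erbb2 were added. Some list members are not reported here. No doublet caller was run. Removing cells over 3 times the median UMIs, and cells with UMIs of other lineages, served as alternatives. Mitochondrial limits, UMI minimums, scaling, thinning, subtraction of free RNA, fold and level minimums were also varied. Barcodes of 10 to 100 UMIs gave the free RNA profile, set at 6.68% of wildtype and 5.11% of HER2 alveolar macrophage UMIs. The nuclear transcript Gm42418, which overlaps ribosomal RNA, held 17.4 and 18.0% of UMIs. The mitochondrial limit removed 21.0 and 17.0% of barcodes. A 3′ end was called shared where 90 or more of its last 300 bases matched another transcript at 95% identity (BLAST 2.17.0). Promoters came from RefSeq on GRCm38.p6, where 367 of 457 list or named genes had an entry, and gene positions from GENCODE M21. Python 3.11.15, numpy 2.4.6, scipy 1.17.1 and pandas 2.3.3 were used.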

Additional observations from a re-analysis of the deposited data

Results flagged for a closer look

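The ratios of 5 named genes were called in opposite directions at 16 and 32 weeks. With 1 library per group and age, the difference between the ages was not tested. A late ratio stands against a late median of -0.20 over all genes. Late calls were common, at 4.73% higher and 28.5% lower of all measured genes. Mlph stood at log2 0.47 early and -0.60 late. Kcnj15 stood at 0.34 early and -0.53 late. Fn1 stood at -1.29 early and 1.09 late, and its wildtype level was 116 CPM early and 12.5 late. S100a4 stood at -0.91 early and 0.52 late, and Ube2c at -0.77 early and 0.72 late.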

How the results depend on the processing

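No paired analysis was possible because each group is 1 library and the labels carry no replicate numbers. The number of genes called higher in HER2 early, 42, was 88 with a mitochondrial limit of 5%, 83 with a total without Gm42418, mitochondrial and ribosomal protein genes, 142 with cells thinned to 2000 UMIs and 65 with free RNA subtracted. It was 141 without cells in which 3 or more UMIs were of cell cycle genes, 259 without cells holding 2 or more UMIs of other lineages, 7 with a minimum of 50 CPM, 2111 with no minimum beyond 1 UMI per library and 4 with a fold of 1.5. The number of genes called lower in HER2 early, 96, was 246, 161 and 184 under the first 3 of these. It was 160 without cycle cells, 204 without other lineages, 15 at 50 CPM, 2189 with no minimum and 15 with a fold of 1.5. Scaling by the median of gene ratios gave 54 higher and 81 lower. The authors' deposited averages gave 47 and 70.

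The MHC class II median of -0.07 was -0.15 with the 5% mitochondrial limit, -0.17 with alveolar genes at 1% and -0.14 without cells holding a T cell receptor, CD3 or B cell UMI, the last chosen after seeing the data. The glucocorticoid median of -0.24 was -0.32 with the 5% limit and -0.16 without other lineages. Without cells holding UMIs of other lineages, the mitosis median was 0.055 and the DNA replication median 0.031, with Cenpf at 0.065 and Ube2c at 0.060. The cause was not tested. Of the 138 called genes, 113 were still called without T cell receptor or CD3 UMI cells and 138 kept their sign. Without other lineages 71 were still called and 125 kept their sign, and without cycle cells these were 68 and 127. Over the alternatives, 480 list medians moved by less than the tolerance set for them, 9 by more and 2 changed sign. For named genes these counts were 410, 64 and 2. Classes by depth and by alveolar gene share were added after seeing the data.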

Other observations

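Some genes outside the lists and the naming rule are given here because of their values. Scd1, the stearoyl-CoA desaturase, stood at 9.05 CPM in wildtype and 13.3 in HER2 (log2 0.56), and Hpgds, a prostaglandin D synthase, at 8.49 and 11.9 CPM (0.48). Il3ra, the interleukin 3 receptor subunit, stood at 11.2 and 16.6 CPM (0.57). Among lower genes, Emb, which encodes the membrane glycoprotein embigin, stood at 24.4 and 15 CPM (-0.70). Stmn1, a microtubule regulator that dividing cells express, stood at 126 and 97.8 CPM (-0.36), and Col6a3, a collagen VI chain, at 26.6 and 20 CPM (-0.42). The linker histone genes Hist1h1d and Hist1h1e stood at -0.54 and -0.40.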
